A study of Mus musculus with 12 samples.

Results

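The change that 24 h of restimulation made in mouse CD8+ T cells exposed to all-trans retinoic acid (ATRA) was measured by RNA sequencing in 6 of the study's 12 libraries. It was taken as 3 libraries of ATRA cells restimulated after tumour co-culture against 3 libraries of ATRA cells sorted straight after co-culture, over the gene symbols that both deposited count tables hold, leaving out symbols ending in -ps, with or without a number. The count table of the co-cultured cells held 13948 symbols, of which 13625 were also in the table of the restimulated cells, and 13476 were used after 149 -ps symbols were left out. Restimulation and the batch set named in the labels coincide: all co-cultured libraries belong to the first set and all restimulated libraries to the second, so restimulation and set cannot be told apart in any value below.

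All cells were splenic CD8+ T cells of OT-I mice, whose transgenic T cell receptor is specific for a chicken ovalbumin peptide. They were expanded with antibodies against CD3e and CD28 and with IL-2, either with ATRA at 5 ng/mL (ATRA cells) or with the same volume of the solvent DMSO (CTRL cells), and were then kept in culture for 5 days. Both kinds of cell were next held for 72 h at 1% O2 with GL261 cells, a mouse glioma line, made to express chicken ovalbumin, with no additive at that stage. Live CD45.2+ cells were sorted at that point (co-cultured) or after 24 h more with anti-CD3e (restimulated), with 3 libraries in each of the 4 groups. The oxygen level during restimulation is not given in the sources used here, and nothing in the labels tells whether libraries of the same group had their own mouse or culture. The p-values therefore rest on the spread between these libraries alone, which may be technical.

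When a T cell receptor is engaged, calcium and kinase signals activate NFAT, AP-1 and NF-kB, which switch on early transcription factors, then cytokines, chemokines and inhibitory receptors, together with feedback inhibitors that damp the signal. T cells held under prolonged antigen enter a state called exhaustion, in which inhibitory receptors stay high and cytokine output falls. Retinoic acid acts through nuclear receptors and is known in T cells for inducing the gut-homing receptor CCR9 and integrin alpha4 beta7, while low oxygen acts through HIF factors on glycolytic genes.

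The library checks came first, because they bear on every value. Deposited counts per library totalled 23558244 to 26024194 in co-cultured and 17943718 to 20115836 in restimulated ATRA cells. In co-culture, replicate 3 stood apart: the Pearson correlation of log CPM was 0.995 between replicates 1 and 2, but 0.9586 and 0.971 between replicate 3 and these, against 0.9941 to 0.9946 among the restimulated libraries. Ccr9, which retinoic acid induces, was at 0 in all 6 CTRL libraries and between 42.3 and 103 CPM in all 6 ATRA libraries. In CTRL cells, however, all 24 tested T cell receptor-induced early factors were lower in the libraries labelled restimulated, against 20.5% of all 11559 genes called lower there. In ATRA cells 7 of these 24 were higher and 9 lower. Hypoxia (19 of 22) and glycolysis (20 of 23) genes were mostly lower in CTRL cells, as they were in ATRA cells. CTRL directions below are those of the libraries as labelled, and whether the CTRL state labels are right was not tested. The 2 count tables also differed in predicted and related-sequence genes (names of Gm with digits, or -rs): 102 of 316 such genes (32.3%) were at least 4-fold higher in the restimulated libraries of both ATRA and CTRL cells, against 19 of 11022 other genes (0.172%), and Gm10359 went from 127923 to 229164 counts in each co-cultured ATRA library to 0 in each restimulated one. How reads of near-identical copies were counted in each table is not given in the sources used here, and genes with close copies, such as the histone H2bc23, the granzyme cluster and Gapdh, are uncertain. Change also moved with transcript GC content, in ATRA cells (Spearman rho -0.21 across 11118 genes, which are not independent replicates) and in CTRL cells (rho -0.19). The median log2 change in ATRA cells was 0.22 among genes of a median GC of 41.3% and -0.36 among genes of a median GC of 57.6%, the lowest and highest of 5 equal groups. In CTRL cells these medians were 0.12 and -0.18. The part of these differences in the results was not tested.

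Markers of cells other than CD8+ T cells were low in both states, as far as they were among the symbols of both tables. The summed CPM of the CD8 T cell markers was 3239 to 3919.8 in co-cultured and 2802 to 2872 in restimulated ATRA libraries, and Cd3e was at 189 to 199 CPM and then at 179.7 to 186 CPM (log2 change -0.09, SE 0.07, adjusted p = 0.263). Of 16 glioma markers, 11 were in both tables, and they summed to 84.8 to 97.1 CPM before and 84.5 to 89.7 after restimulation, but the members did not move together. Axl (log2 change 0.66), Igfbp7 (1.72), Tnc (5.45) and Cav1 (4.38) were called higher, the last 3 at no more than 2.24 CPM. Loxl2 (-3.41) and Gja1 (-0.97) were called lower, and Sparc, Col1a2 and Mmp2 were at 0 after restimulation. The sum was mostly Axl, at a mean of 49.1 and then 77.3 CPM, and Loxl2, at 33.7 and then 3.17 CPM, so its steadiness does not show a steady glioma content. B cell markers summed to 44.3 to 74 and then 48.6 to 53.2 CPM, mostly Ighm, and monocyte and macrophage markers to 20.9 to 25.6 and then 22.4 to 23.8 CPM. The dendritic cell list went from 4.36 to 7.93 CPM to 69.7 to 70.9 CPM, almost all of it Itgax, which activated CD8+ T cells can also express and which was higher in CTRL cells too. NK markers went from 11.1 to 14.4 CPM to 24.7 to 30.2 CPM, mostly Eomes. Only 1 of 5 neutrophil and 1 of 5 erythroid markers were in both tables, and these stayed at or below 2.23 CPM. Of the monocyte and macrophage markers 3 of 8 were in both, and of the dendritic cell markers 3 of 7. The levels of the other markers after restimulation were not examined. CD4 T cell markers went from 79 to 82.4 CPM to 26.3 to 29.5 CPM, mostly Zbtb7b. In these bulk libraries fewer cells of a type and less RNA per cell cannot be told apart.

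Restimulation of ATRA cells changed 6832 of 11916 tested genes (57.3%) at a Benjamini-Hochberg adjusted p below 0.05 in edgeR's quasi-likelihood test, 3370 higher (28.3%) and 3462 lower (29.1%). At least 2-fold changes made up 3300 of these (27.7% of genes tested), 1479 higher (12.4%) and 1821 lower (15.3%). The 3 restimulated libraries did not overlap the 3 co-cultured ones for 8136 genes (68.3%), and over all genes the median log2 change was -0.01 and the median size of change 0.62. With so many genes called, a list of genes is described below by its count and median, beside these background shares. Log2 changes are restimulated minus co-cultured, and levels are CPM (read counts scaled to a common library size, with TMM factors), which compare a gene between libraries but not genes with each other.

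**Figure D1:**
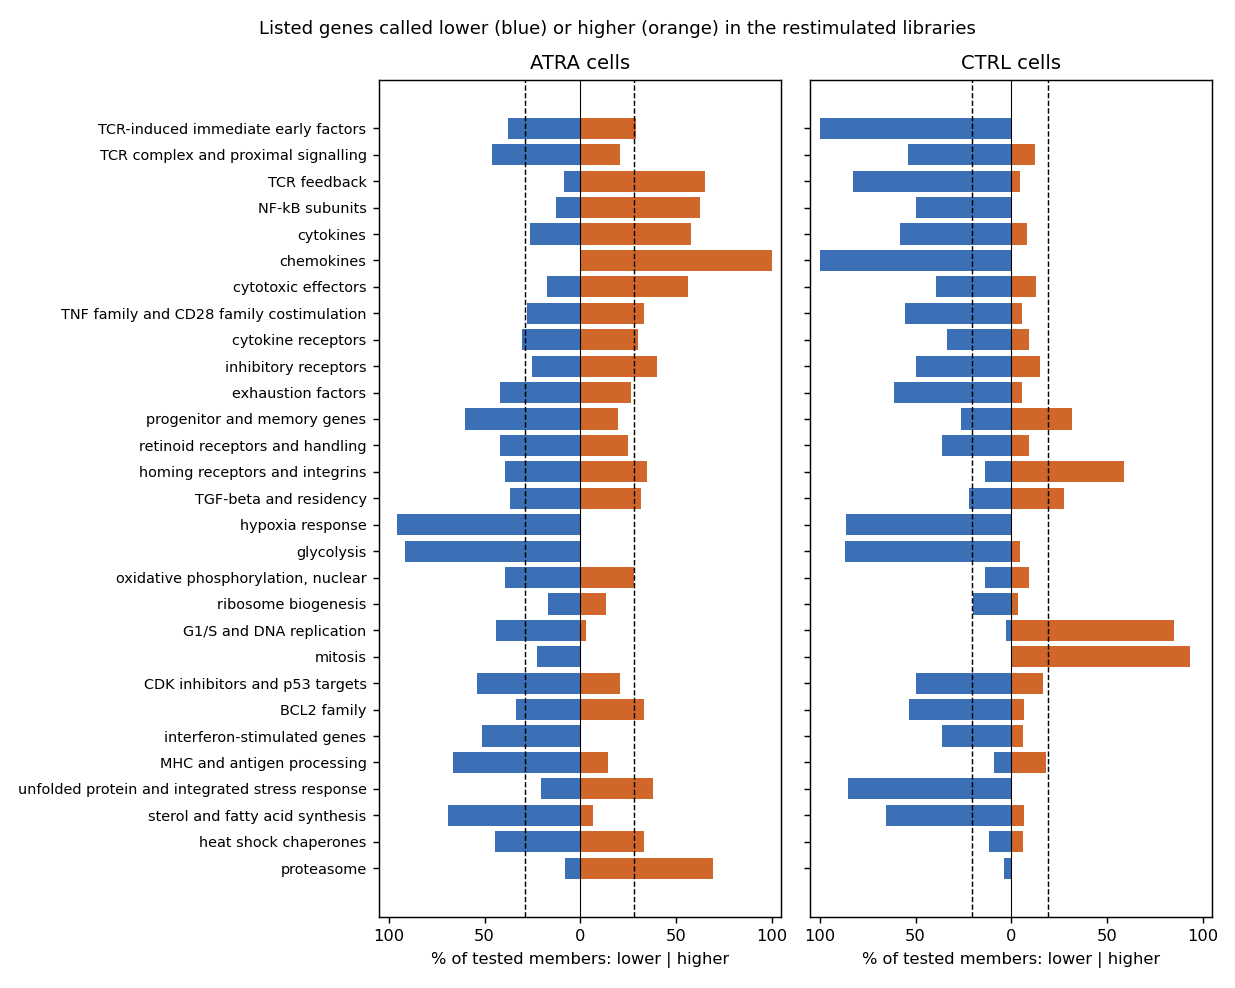
Share of the tested members of each gene list called lower (left, blue) or higher (right, orange) with restimulation, in percent, in ATRA and in CTRL cells. Dashed lines give the share of all tested genes called in that direction (ATRA 29.1% lower and 28.3% higher, CTRL 20.5% lower and 19.1% higher). In ATRA cells the chemokine, T cell receptor feedback and proteasome lists lie mainly on the higher side, and the hypoxia, glycolysis and sterol lists on the lower side.

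Upstream sequences are shown for 6 genes whose changes recur below, from RefSeq's promoter table on GRCm38.p6. They are the 150 bases before the start, 5' to 3' on the gene's strand. Capitals mark only the letters named for that gene, not the other letters searched. The first pair are Mmp10, the largest rise in ATRA cells, and Il1a, the largest rise relative to CTRL cells, with the AP-1 letters TGANTCA.
Mmp10, chr9:7502192-7502341, plus strand: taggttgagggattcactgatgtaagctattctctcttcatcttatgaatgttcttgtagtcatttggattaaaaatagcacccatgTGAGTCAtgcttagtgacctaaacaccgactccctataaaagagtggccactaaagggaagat
Il1a, chr2:129309973-129310122, minus strand: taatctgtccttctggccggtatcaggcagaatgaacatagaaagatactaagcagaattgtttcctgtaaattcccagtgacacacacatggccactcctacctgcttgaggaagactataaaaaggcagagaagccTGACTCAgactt
Xcl1, whose CPM rose from at most 1.4 to at least 282, is shown with GGAAA, the core letters bound by NFAT, here on the opposite strand.
Xcl1, chr1:164935523-164935672, minus strand: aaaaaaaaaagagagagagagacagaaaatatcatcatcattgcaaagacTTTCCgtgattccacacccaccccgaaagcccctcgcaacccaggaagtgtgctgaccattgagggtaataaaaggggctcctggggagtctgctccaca
Bnip3 and Ldha, which fell, hold ACGTG, the core of the hypoxia response element, and Oas3, which also fell, holds the core letters of the interferon-stimulated response element, GAAA repeated after any pair of bases.
Bnip3, chr7:138909507-138909656, minus strand: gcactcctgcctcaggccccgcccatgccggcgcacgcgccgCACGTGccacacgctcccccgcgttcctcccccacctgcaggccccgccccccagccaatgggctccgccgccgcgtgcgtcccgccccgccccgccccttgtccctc
Ldha, chr7:46845654-46845803, plus strand: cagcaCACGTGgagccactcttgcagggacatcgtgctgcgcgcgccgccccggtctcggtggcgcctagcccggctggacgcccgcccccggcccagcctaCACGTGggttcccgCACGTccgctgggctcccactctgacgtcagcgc
Oas3, chr5:120777660-120777809, minus strand: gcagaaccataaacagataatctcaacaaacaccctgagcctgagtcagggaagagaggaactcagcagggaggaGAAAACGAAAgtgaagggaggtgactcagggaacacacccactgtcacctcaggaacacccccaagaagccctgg
These 6 genes were picked knowing that they hold the letters. Other searched letters stand in lower case, among them TGANTCA in Oas3, which fell, and GGAAA on the opposite strand in Il1a. Both strands of the 250 bases before the start were searched in 27025 genes, without removing overlaps between motifs. TGANTCA was held by 7 of 29 cytokine and chemokine genes (24.1%) and by 7.82% of all genes, by 3 of the 15 of them called higher (20.0%) and 2 of the 4 called lower. The interferon-stimulated list, in which no gene rose, held it in the same share, 7 of 29 (24.1%). GGAAA, which is short, was held by 26 of these 29 (89.7%) by 24 of 29 interferon-stimulated genes (82.8%), by all 4 of the cytokines called lower and by 58.8% of all genes. ACGTG was held by 23 of 40 hypoxia and glycolysis genes (57.5%), by 18.5% of all genes and by 2 of the 29 cytokine and chemokine genes (6.90%). The interferon-stimulated response element letters were held by 18 of 29 interferon-stimulated genes (62.1%), by 3.46% of all genes and by 1 of 40 hypoxia and glycolysis genes (2.50%). Among the members that changed in the list's direction the share was 86.7% for GGAAA, 56.8% for ACGTG and 71.4% for the interferon letters. A match is a run of letters, not a bound site.

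The early transcription factors that follow T cell receptor signalling did not move together. Of 24 tested, 7 rose and 9 fell, with a median log2 change of 0.01, beside 28.3% higher and 29.1% lower of all genes. Egr2, a zinc finger factor induced by calcium and NFAT signals, was at 5.56, 5.12 and 4.21 CPM in co-culture and at 151, 144 and 149 CPM after restimulation. All 3 restimulated libraries lay far above the co-cultured ones, a log2 change of 4.90 (SE 0.13, adjusted p = 1.0e-05). Nr4a1, an orphan nuclear receptor that reports receptor signalling, was at 14.6, 15.5 and 18.8 CPM and then at 46.3, 52.7 and 52.4 CPM (log2 change 1.63, SE 0.13, adjusted p = 1.3e-04). Its relatives Nr4a2 (2.22, SE 0.19) and Nr4a3 (2.28, SE 0.67) rose too, as did the AP-1 subunit gene Fosl1 (2.96, SE 0.22). Egr1 was higher in all 3 restimulated libraries, at 202 to 212 CPM against 10.8 to 98.4 CPM, but did not pass the test (1.67, SE 0.69, adjusted p = 0.0748). It passed without co-cultured replicate 3, the lowest library (1.18, adjusted p = 3.3e-11), while Nr4a3 lost its call without co-cultured replicate 2 or any restimulated library (adjusted p = 0.0522 to 0.0721).

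Other members of the same list fell. Myc, which drives growth and metabolism in activated T cells, was at 415, 389 and 239 CPM and then at 68.6, 62.1 and 62.2 CPM, with every restimulated library below every co-cultured one (log2 change -2.43, SE 0.21, adjusted p = 1.8e-04). Irf4, a factor graded with receptor signal strength, went from 163 to 256 CPM to 70.4 to 76.3 CPM (-1.59, SE 0.17). Batf3, an AP-1 family factor, went from 39.8 to 49 CPM to between 0.259 and 1.39 CPM (-5.76, SE 0.44, and -6.37 without restimulated replicate 3). The AP-1 genes Jun (-0.64), Junb (-1.14) and Jund (-0.92) also fell.

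Inhibitors that restrain receptor signalling mostly rose. Of 23 tested feedback genes, 15 rose and 2 fell, with a median log2 change of 1.15. Rgs2, which limits signalling by G proteins, was at 7.17, 6.81 and 7.07 CPM and then at 99.4, 102 and 104 CPM, with tight replicates and no overlap (log2 change 3.86, SE 0.09, adjusted p = 8.9e-06). The ERK phosphatase genes Dusp6 (2.58, SE 0.19) and Dusp5 (1.29, SE 0.08) rose, as did Spry4, an inhibitor of the Ras pathway (4.60, SE 0.51, from at most 0.165 CPM to between 2 and 3.48 CPM), and Rgs16 (2.66, SE 0.57). Tnfaip3, which removes ubiquitin in the NF-kB pathway, did not pass the test (-0.20, SE 0.27, adjusted p = 0.547), and its sign turned without co-cultured replicate 3 (0.20, adjusted p = 0.0145).

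NF-kB and signalling genes divided. Of 8 NF-kB subunit and kinase genes 5 rose and 1 fell, and Rel, the c-Rel subunit needed for cytokine genes, was at 32.2, 30 and 39.4 CPM and then at 188, 192 and 185 CPM (log2 change 2.48, SE 0.12, adjusted p = 2.9e-05). Its restimulated levels all lay above the highest co-cultured level. Among 24 genes of the receptor complex and its proximal signalling, 5 rose and 11 fell, with a median of -0.16. Cd8a, the coreceptor chain, went from 319.9 to 384 CPM to 147 to 152 CPM (-1.27, SE 0.09), and Lck, the kinase it carries, from 360.1 to 485 CPM to 147 to 158 CPM (-1.40, SE 0.13).

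**Figure D2:**
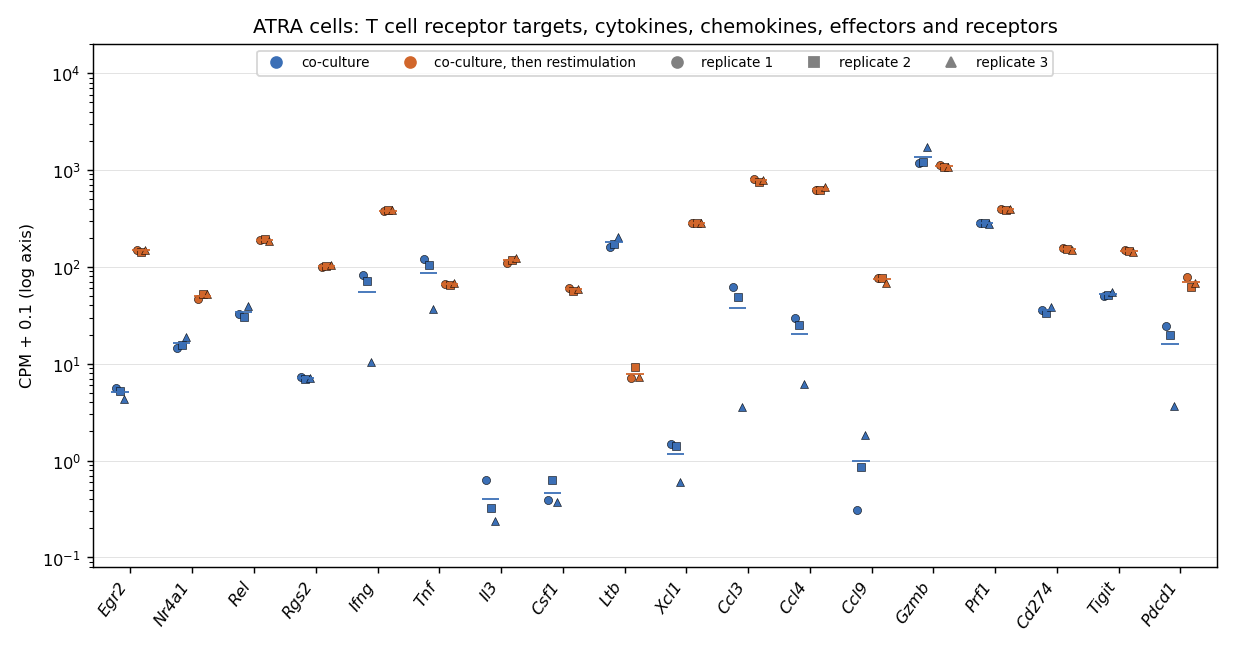
CPM plus 0.1 on a log axis for 18 T cell receptor-linked genes in the 6 ATRA libraries, co-cultured in blue and restimulated in orange, with the marker shape giving the replicate and the bar the mean. Egr2, Il3, Xcl1 and Csf1 are separated by well over 10-fold, Gzmb and Tnf lie close together, and co-cultured replicate 3 is the lowest of its group for Ifng, Ccl3, Ccl4 and Pdcd1.

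Cytokine genes showed some of the largest rises in ATRA cells, but not all of them rose: 11 of 19 tested rose and 5 fell, with a median log2 change of 2.75. Without co-cultured replicate 3, 13 rose and 6 fell, with a median of 3.66. Ifng, the main cytokine of CD8+ effector cells, was at 81.7, 71.6 and 10.2 CPM in co-culture and at 376, 386 and 383 CPM after restimulation. The restimulated libraries were alike and above all co-cultured ones, which ranged widely (log2 change 2.81, SE 0.68, adjusted p = 0.0113). Tnf, its inflammatory partner, was at 119.9, 104 and 36.9 CPM and then at 66.1, 65 and 67.7 CPM, so that the restimulated levels lay within the co-cultured range (-0.39, SE 0.39, adjusted p = 0.42). Without co-cultured replicate 3 Tnf was called lower (-0.75, adjusted p = 6.7e-08).

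The colony-stimulating cytokines rose steeply. Il3, a growth factor for myeloid cells, was at 0.536, 0.222 and 0.136 CPM and then at 110.0, 118 and 122 CPM (log2 change 8.55, SE 0.32, adjusted p = 1.4e-05). Csf1, which sustains macrophages, was at 0.288, 0.534 and 0.272 CPM and then at 60.1, 55.8 and 59 CPM (7.30, SE 0.23). Both were at most 0.536 CPM in co-culture, where the detection floor of 3 counts is 0.124 to 0.136 CPM, and far above this in every restimulated library. Csf2, encoding GM-CSF, was already expressed and went from 20.4 to 52.9 CPM to 249 to 270.3 CPM (2.75, SE 0.33).

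Cytokines associated with type 2 responses were among those that rose. Il4, which directs type 2 differentiation, was at 1.24, 2.63 and 14.4 CPM and then at 67.1, 75.7 and 64.8 CPM (log2 change 3.51, SE 0.82, adjusted p = 0.01). Il5, an eosinophil growth factor, was at 0.618, 1.96 and 8.29 CPM and then at 68.2, 67.1 and 63.9 CPM (4.20, SE 0.79, adjusted p = 0.00398). Il13, at 17.1, 66.6 and 243 CPM and then 549, 500.1 and 528 CPM, lay higher in all 3 restimulated libraries but missed the threshold (2.27, SE 0.83, adjusted p = 0.0531). Co-cultured replicate 3 was the highest of its group for all 3 of these genes, the reverse of its place for Ifng, and without it the changes were 5.18 for Il4, 5.71 for Il5 and 3.66 for Il13, the last then past the threshold (adjusted p = 0.0196). Without co-cultured replicate 1 Il13 also passed (1.77, adjusted p = 0.0243). Il10, a suppressive cytokine, had the same pattern and also missed it (2.08, SE 0.96, adjusted p = 0.106, and 3.81 with adjusted p = 0.0181 without that replicate), while Il6 rose with little spread (5.61, SE 0.24). Il17a and Il22 were at 0 in co-culture and at low levels after restimulation, at least 8.32-fold and at least 12.7-fold higher when 3 counts per library are taken for 0.

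Members of the TNF family involved in lymphoid tissue went the other way. Ltb, encoding lymphotoxin beta, was at 162, 171 and 203 CPM and then at 6.99, 9.23 and 7.22 CPM (log2 change -4.51, SE 0.16, adjusted p = 1.4e-05). Lta, encoding its partner, fell from 58.4 to 443 CPM to 12.3 to 15.3 CPM (-4.44, SE 0.74), and Il16, a chemoattractant for CD4+ cells, fell from 70.9 to 112 CPM to 8.56 to 10.9 CPM (-3.25, SE 0.21). In all 3 the groups did not overlap.

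All 6 tested chemokine genes rose, with a median log2 change of 4.98, beside 28.3% higher of all genes. The list holds 11 genes, of which 8 were in both tables. Xcl1, which attracts cross-presenting dendritic cells, was at 1.4, 1.33 and 0.498 CPM and then at 282, 284 and 285 CPM (8.02, SE 0.31, adjusted p = 1.5e-05). Ccl3, which attracts myeloid and T cells, was at 61.3, 48.2 and 3.44 CPM and then at 810.4, 743 and 790.3 CPM (4.37, SE 0.90, adjusted p = 0.00605). Ccl4, a chemokine of the same family, was at 29.7, 25.3 and 6.11 CPM and then at 623, 624 and 669 CPM (4.97, SE 0.57, adjusted p = 5.2e-04). In each of these the lowest restimulated library was more than 10-fold above the highest co-cultured one. Ccl9 (6.38, SE 0.53, and 7.28 without co-cultured replicate 3), Ccl1 (4.99, SE 0.54, and 5.59 without co-cultured replicate 1) and Ccl5 (1.70, SE 0.31) were the other tested genes. Without co-cultured replicate 3, 7 were tested, of which 6 rose and 1 fell, as when all 12 libraries were fitted together. With no filter on low counts 8 were tested, of which 7 rose and 1 fell.

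Cytotoxic genes changed less in size. Of 23 tested, 13 rose and 4 fell, with a median log2 change of 0.49. Prf1, the pore-forming protein of cytotoxic granules, was at 285, 284 and 279 CPM and then at 393, 384 and 397 CPM, a small rise with no overlap (0.47, SE 0.06, adjusted p = 0.00103). Gzmb, the main granzyme, was at 1189.7, 1213 and 1721 CPM and then at 1116, 1071 and 1083 CPM. All 3 restimulated levels lay below the co-cultured ones, but the difference did not pass the test (-0.33, SE 0.15, adjusted p = 0.102); without co-cultured replicate 3 it was smaller and passed (-0.14, adjusted p = 0.00191). Serpinb9, the inhibitor that protects killer cells from their own granzyme B, went from 34 to 84.2 CPM to 583 to 635 CPM (3.21, SE 0.33). Within the granzyme cluster, where copies are alike, Gzme rose (1.80, SE 0.13), while Gzmf fell (-1.23, SE 0.16). Gzmk, a granzyme gene outside that cluster, also fell (-3.15, SE 0.46). Tnfsf10, encoding the death ligand TRAIL, rose (2.05, SE 0.18), and Klrk1, encoding the activating receptor NKG2D, fell (-2.42, SE 0.61), a call lost without restimulated replicate 1 or 2 (adjusted p = 0.0559 and 0.0582). The effector regulators Tbx21, from 45 to 57.8 CPM to 73.2 to 81.7 CPM (0.65, SE 0.12), and Eomes, from 9.37 to 10.3 CPM to 19.4 to 22.5 CPM (1.12, SE 0.13), rose, and Klrg1, a marker of terminal effectors, rose from at most 0.634 CPM to between 7.52 and 10.4 CPM (4.90, SE 0.64, and 6.06 without co-cultured replicate 3).

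Among costimulatory genes 6 of 18 rose and 5 fell, and among cytokine receptor genes 7 of 23 rose and 7 fell. These shares were near the 28.3% higher and 29.1% lower of all genes. Tnfrsf9, encoding 4-1BB, was at 572, 589 and 673 CPM and then at 398, 379 and 406 CPM (log2 change -0.63, SE 0.09). Cd28 rose slightly (0.47, SE 0.16, adjusted p = 0.0385), a call lost without any library but co-cultured replicate 3 (adjusted p = 0.0677 to 0.114). Il2ra, the high-affinity IL-2 receptor chain, fell slightly, from 691 to 738 CPM to 518 to 574 CPM (-0.36, SE 0.08).

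Of 20 inhibitory receptor and ligand genes, 8 rose and 5 fell, with a median log2 change of 0.58, beside 28.3% higher and 29.1% lower of all genes. Without co-cultured replicate 3, 12 of these genes rose and 5 fell. Tigit, a receptor for poliovirus receptor family ligands, was at 49.9, 51.4 and 54.4 CPM and then at 148, 147 and 144 CPM (1.49, SE 0.07, adjusted p = 3.1e-05). Cd274, encoding the PD-1 ligand PD-L1, was at 35.8, 33.6 and 38.3 CPM and then at 155, 152 and 151 CPM (2.09, SE 0.08, adjusted p = 1.6e-05). The replicates of both genes were close, and the groups were well apart. Havcr2, encoding TIM-3, rose from 81.6 to 141 CPM to 247 to 257 CPM (1.28, SE 0.20).

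PD-1 itself was less certain. Pdcd1 was at 24.7, 19.9 and 3.53 CPM and then at 78.3, 61.6 and 67.7 CPM (log2 change 2.10, SE 0.61, adjusted p = 0.023), higher in all 3 restimulated libraries. The call was lost without co-cultured replicate 2 (adjusted p = 0.0505) or without any restimulated library (0.0574 to 0.0694). Ctla4, an inhibitory receptor for CD80 and CD86, was at 248, 299 and 566 CPM and then at 169, 163 and 179 CPM (-1.12, SE 0.30, adjusted p = 0.0167), a call that was lost without any restimulated library (0.0559 to 0.0659). Lag3, a receptor for MHC class II, did not pass (0.33, SE 0.16, adjusted p = 0.118), but did so without co-cultured replicate 3 (0.54, adjusted p = 9.2e-08) or with library totals in place of TMM (0.47, adjusted p = 0.0133). Entpd1, encoding the ectoenzyme CD39 that marks terminally exhausted cells, fell from 84.4 to 104 CPM to 28.9 to 32.3 CPM (-1.58, SE 0.11).

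Genes of progenitor and memory cells mostly fell: 12 of 20 tested fell and 4 rose, with a median log2 change of -0.56, and 13 of 21 fell and 7 rose without co-cultured replicate 3. Tcf7, encoding the TCF-1 factor of progenitor cells, was at 14.4, 15.2 and 2.72 CPM and then at 0.777, 0.259 and 0.199 CPM (-4.71, SE 0.84, adjusted p = 0.00324). Ccr7, the lymph node homing receptor, was at 227, 218 and 207 CPM and then at 11.4, 11.1 and 8.07 CPM (-4.41, SE 0.16, adjusted p = 1.4e-05). Both genes were lower in every restimulated library, though Tcf7 was low in co-cultured replicate 3 as well, and was at -5.51 without restimulated replicate 1. Lef1, a partner of TCF-1, fell from 119.6 to 136 CPM to 29.2 to 30.5 CPM (-2.10, SE 0.09), and S1pr1, which lets cells leave tissue, from 66.2 to 87.7 CPM to 7.52 to 8.6 CPM (-3.17, SE 0.15). Klf2, which drives S1pr1 (-3.88, SE 0.48), Slamf6, a progenitor surface marker (-2.65, SE 0.42), and Myb (-2.07, SE 0.13) fell as well. Il7r, the survival cytokine receptor, fell less (-0.59, SE 0.09). Bcl6, a repressor that favours memory formation, rose from 1.24 to 8.51 CPM to 35 to 38.6 CPM (3.28, SE 0.69, and 4.65 without co-cultured replicate 3).

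Among 19 factors linked to exhaustion, 5 rose and 8 fell (median log2 change -0.63, and -0.05 without co-cultured replicate 3), beside 28.3% higher and 29.1% lower of all genes. Tox, the factor most tied to exhaustion, was scarce, at 2.1, 1.82 and 0 CPM and then at 0.888, 0.622 and 0.797 CPM, so that the groups overlapped (-0.77, SE 1.05, adjusted p = 0.555). Without co-cultured replicate 3 it was called lower (-1.34, adjusted p = 0.0102).

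Gut-homing and retinoid-responsive genes moved in different directions. Ccr9, the receptor for the gut chemokine CCL25, was at 43.2, 42.3 and 44.4 CPM and then at 99.5, 103 and 103 CPM (log2 change 1.23, SE 0.07, adjusted p = 5.2e-05). The chains of the gut-homing integrin went down: Itga4 was at 246, 262 and 332 CPM and then at 126, 125 and 125 CPM (-1.16, SE 0.12, adjusted p = 3.8e-04), and Itgb7 at 509, 506 and 712 CPM and then at 238, 234 and 245 CPM (-1.27, SE 0.15, adjusted p = 5.3e-04). None of the 3 genes overlapped between states, so the receptor was higher and both integrin chains lower after restimulation. Over 23 homing genes, 8 rose and 9 fell, beside 28.3% higher and 29.1% lower of all genes. Cxcr4, the receptor for CXCL12, fell from 212 to 465 CPM to 16.4 to 19.3 CPM (-4.12, SE 0.32), and Selplg, the selectin ligand, from 648 to 894 CPM to 174 to 179 CPM (-2.05, SE 0.14). Ccr2, which follows CCL2 into inflamed tissue (1.82, SE 0.25), and Itga1, a collagen-binding integrin of resident cells (2.62, SE 0.13), rose.

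Of 12 tested genes of retinoid receptors and handling, 3 rose and 5 fell, beside 28.3% higher and 29.1% lower of all genes. Tgm2, a transglutaminase that retinoic acid induces in many cells, was at 47.7, 51.6 and 59.5 CPM and then at 6.93, 6.38 and 7.02 CPM (log2 change -2.96, SE 0.13, adjusted p = 2.2e-05). Crabp2, which carries retinoic acid to its nuclear receptor, was at 0.906, 0.934 and 0.498 CPM and then at 35.7, 31 and 31.9 CPM (5.38, SE 0.24, adjusted p = 2.5e-05). These 2 genes thus changed in opposite directions, each with no overlap. Rara, encoding the retinoic acid receptor alpha, fell from 40.3 to 58.4 CPM to 26.7 to 31.5 CPM (-0.78, SE 0.16), and Stra6, a retinol transporter, rose (2.77, SE 0.72, adjusted p = 0.0156), at 4.14 without co-cultured replicate 3 and with the call lost without co-cultured replicate 2 (adjusted p = 0.0522).

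The hypoxia list moved together: 22 of 23 tested genes fell and 0 rose, with a median log2 change of -2.25. Bnip3, a mitophagy receptor induced by HIF-1, was at 452, 472 and 707 CPM and then at 52.3, 47.6 and 56.3 CPM (-3.38, SE 0.20, adjusted p = 5.0e-05). Egln3, the oxygen-sensing prolyl hydroxylase PHD3, was at 202, 215 and 261 CPM and then at 21.5, 19.1 and 18.8 CPM (-3.51, SE 0.13, adjusted p = 1.4e-05). In both, every restimulated library lay several-fold below every co-cultured one. Fam162a (-2.52, SE 0.09), Pdk1, which keeps pyruvate from the mitochondria (-3.30, SE 0.16), the adenylate kinase Ak4 (-3.81, SE 0.25) and Zfp395 (-6.17, SE 0.27) fell too. The member that did not pass was Vegfa, the angiogenic factor, at 97.1, 107 and 179.9 CPM and then 96.7, 95.8 and 93 CPM (-0.43, SE 0.23, adjusted p = 0.151), which passed without co-cultured replicate 1 (-0.59, adjusted p = 0.0492).

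Glycolytic genes fell with them: 21 of 23 tested fell and 0 rose, with a median log2 change of -1.52. Hk2, the inducible hexokinase, was at 478, 483 and 507 CPM and then at 106, 94.2 and 87.2 CPM (-2.35, SE 0.09, adjusted p = 1.7e-05). Slc16a3, the lactate exporter MCT4, was at 225, 227 and 237 CPM and then at 46.3, 51.4 and 48.1 CPM (-2.24, SE 0.08, adjusted p = 1.3e-05). Ldha, which makes lactate, was at 911, 954 and 1218 CPM and then at 429, 439 and 466 CPM (-1.21, SE 0.13, adjusted p = 3.6e-04). The step sizes differed, but in none of the 3 did the states overlap. The 2 members not called were Pfkfb4 (0.11, SE 0.23, adjusted p = 0.696) and Slc16a1. The oxygen level is stated only for the co-culture, so a change of oxygen and restimulation cannot be told apart here.

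**Figure D3:**
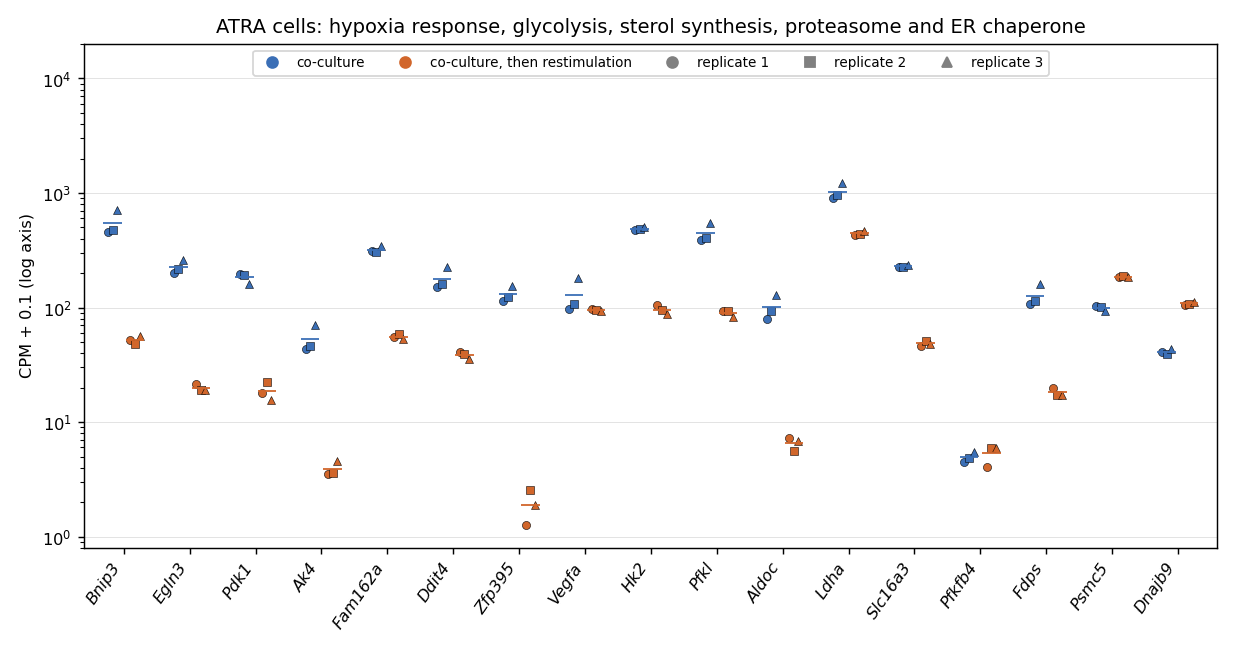
CPM plus 0.1 on a log axis for 17 hypoxia, glycolysis, sterol, proteasome and stress genes in the 6 ATRA libraries, co-cultured in blue and restimulated in orange, with the marker shape giving the replicate and the bar the mean. Bnip3, Egln3, Pdk1 and Zfp395 lie far lower after restimulation, Vegfa and Pfkfb4 overlap or nearly so, and Psmc5 and Dnajb9 lie higher.

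Nuclear genes of oxidative phosphorylation changed little: of 43, 12 rose and 17 fell with a median log2 change of -0.09, beside 28.3% higher and 29.1% lower of all genes. With library totals in place of TMM the split turned to 15 higher and 10 lower. It was 9 and 9 without restimulated replicate 1, 9 and 7 without restimulated replicate 2, 9 and 11 without restimulated replicate 3, and 8 and 10 without co-cultured replicate 2. Sdhb, a subunit of complex II, rose from 72 to 80.7 CPM to 153 to 166 CPM (1.05, SE 0.08), and Ndufb9 of complex I fell from 141 to 152 CPM to 98 to 101 CPM (-0.56, SE 0.07). Ribosome biogenesis genes were mostly not called, with 4 of 30 higher and 5 lower, and 9 higher and 13 lower without co-cultured replicate 3.

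Sterol and fatty acid synthesis genes fell in 20 of 29 tested and rose in 2, with a median log2 change of -0.80. Fdps, which makes farnesyl diphosphate, was at 107, 113 and 160.1 CPM and then at 19.9, 17.3 and 17.3 CPM (-2.80, SE 0.18, adjusted p = 6.7e-05), with no overlap. Scd2, a fatty acid desaturase, fell from 563 to 834 CPM to 173 to 182 CPM (-1.92, SE 0.16).

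Few cell cycle genes rose, and many were not called. Of 34 genes of G1/S and DNA replication, 15 fell and 1 rose (median log2 change -0.78), and of 31 mitotic genes 7 fell and 0 rose (median -0.73), the latter a smaller share than the 29.1% of all genes called lower. Mki67, the proliferation marker Ki-67, was at 1237, 1129.6 and 585 CPM and then at 470.0, 448 and 437 CPM (-1.12, SE 0.26, adjusted p = 0.0104). Mcm6, part of the replicative helicase, was at 469, 459 and 424 CPM and then at 177, 184 and 184 CPM (-1.31, SE 0.07, adjusted p = 4.1e-05). Mki67 in co-cultured replicate 3 lay nearer to the restimulated libraries than to its own group, whereas Mcm6 was even within each group. Without it the counts became 27 lower and 4 higher for G1/S and 30 lower and 0 higher for mitosis, and without any of the other 5 libraries 9 to 10 G1/S genes and 2 mitotic genes were lower. Ccnd3, encoding cyclin D3, fell (-1.99, SE 0.09), and Ccne2, encoding cyclin E2, was the G1/S gene that rose (1.04, SE 0.36, adjusted p = 0.0435), a call lost without co-cultured replicate 2 or any restimulated library (adjusted p = 0.0715 to 0.109). The inhibitor gene Cdkn1b, encoding p27, fell as well (-1.75, SE 0.19).

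**Figure D4:**
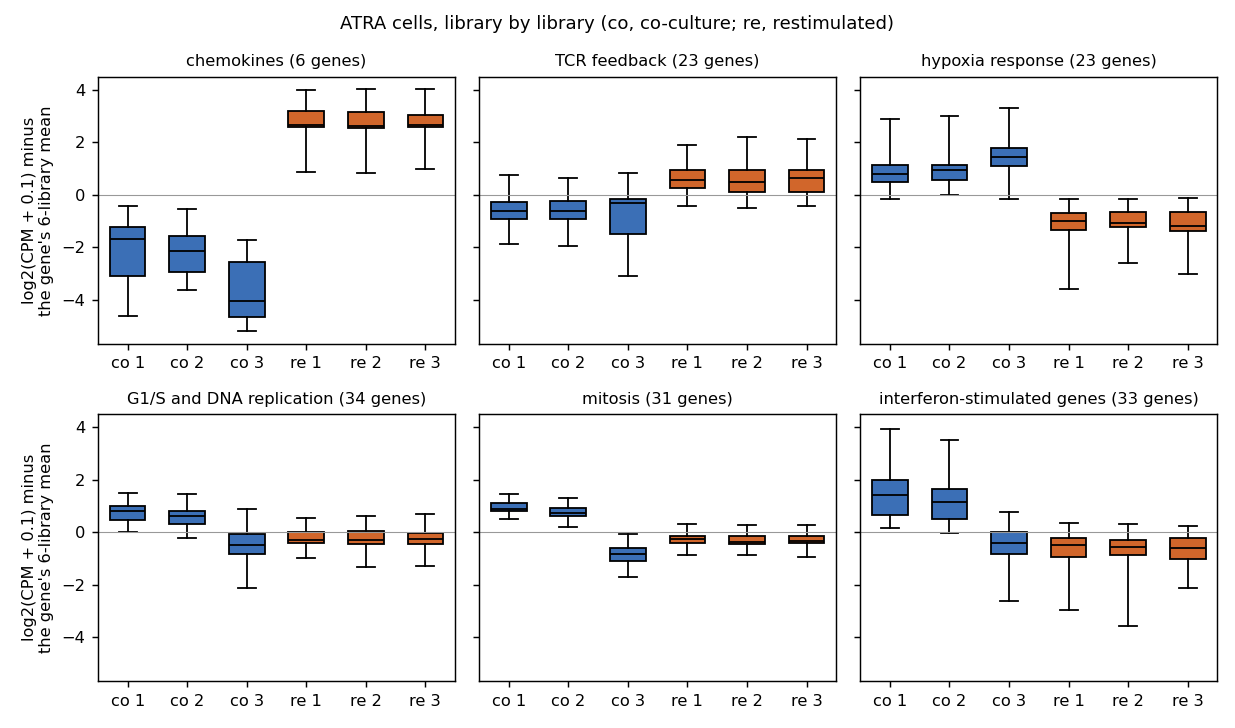
Boxes of log2(CPM + 0.1) minus each gene's mean over the 6 ATRA libraries, per library, for the chemokine (6 genes), T cell receptor feedback (23), hypoxia (23), G1/S (34), mitosis (31) and interferon-stimulated (33) lists, with whiskers over the full range. Co-cultured replicate 3 lies near the restimulated libraries for mitotic and interferon-stimulated genes and with its own group for hypoxia genes.

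Of 15 genes of the BCL2 family, 5 were higher and 5 lower, near the 28.3% and 29.1% of all genes called in these directions. The list holds both protective and death-promoting members. Bcl2, which protects resting cells, was at 184, 166 and 90.3 CPM and then at 21.4, 22.1 and 23.8 CPM (log2 change -2.71, SE 0.27, adjusted p = 3.0e-04). Bcl2l11, encoding the death-promoting protein BIM, went the other way, from 4.08 to 6.57 CPM to 20.1 to 21.3 CPM (1.91, SE 0.20).

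Interferon-stimulated genes fell in 17 of 33 tested and rose in 0, with a median log2 change of -1.39. Oas3, an antiviral RNA sensor, was at 134, 122 and 21.2 CPM and then at 3.83, 2.7 and 3.48 CPM (-4.79, SE 0.73, adjusted p = 0.00166). Gbp6, an interferon-induced GTPase, was at 822, 710.1 and 207 CPM and then at 91.8, 84.5 and 88.6 CPM (-2.72, SE 0.48, adjusted p = 0.00319). In both genes co-cultured replicate 3 was the lowest of its group, yet above all restimulated libraries. Stat2, which transduces type I interferon signals, fell (-1.07, SE 0.13). Without co-cultured replicate 3, 34 of 37 tested members fell.

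MHC and antigen processing genes fell in 14 of 21 and rose in 3, with a median log2 change of -0.82. Psmb8, a subunit of the immunoproteasome, was at 446, 444 and 400.0 CPM and then at 157, 146 and 149.6 CPM (-1.51, SE 0.08, adjusted p = 3.4e-05), and Tap1, the peptide transporter, fell from 304 to 320.5 CPM to 150.5 to 157 CPM. The class I gene H2-K1, which has close relatives, fell less (-0.64, SE 0.09), and the class I transactivator gene Nlrc5 fell from 254 to 601 CPM to 161 to 171 CPM (-1.50, SE 0.30).

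Standard proteasome subunits rose, by small amounts, in 18 of 26 genes and fell in 2, with a median log2 change of 0.44. Psmc5, an ATPase of the regulatory particle, was at 102, 100.1 and 92.7 CPM and then at 185, 187 and 185 CPM (0.92, SE 0.07, adjusted p = 1.1e-04), with no overlap. Of 34 genes that answer unfolded protein and other integrated stress, 13 rose and 7 fell (median 0.23), with 18 and 4 under library totals in place of TMM, and 22 and 9 without co-cultured replicate 3. Dnajb9, a chaperone of the endoplasmic reticulum, was at 40.4, 39.2 and 43.1 CPM and then at 106, 107 and 112 CPM (1.40, SE 0.08, adjusted p = 4.5e-05). Slc3a2, the heavy chain of amino acid transporters, rose (1.29, SE 0.09), and Trib3, a target of the stress factor CHOP, fell (-1.30, SE 0.24). Among 18 heat shock chaperone genes 6 rose and 8 fell, beside 28.3% higher and 29.1% lower of all genes. Hspa1a, an inducible HSP70 with a near-identical copy, was at 146, 199 and 463 CPM and then at 24.6, 26.9 and 25.1 CPM (-3.40, SE 0.44, adjusted p = 8.8e-04, and -2.75 without co-cultured replicate 3).

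The largest rises were in genes nearly silent in co-culture. Mmp10, a secreted protease whose upstream bases are shown above, was at 0, 0.178 and 0.362 CPM and then at 271, 276 and 285 CPM (log2 change 10.58, SE 0.43, adjusted p = 1.7e-05). Areg, encoding the EGF receptor ligand amphiregulin, was at 0.124, 0.0445 and 0 CPM and then at 60.1, 61.2 and 57.4 CPM (9.86, SE 0.36, adjusted p = 1.4e-05). Both sat at or near the detection floor in every co-cultured library, and leaving out 1 of these libraries moved the values to between 9.98 and 11.57 for Mmp10 and to 11.03 for Areg. Scg2, a secretory granule protein, was at 0 in co-culture and at 6.32, 8.87 and 6.32 CPM after restimulation, at least 54.8-fold higher. Fat2, a protocadherin, Sh2d1b1, encoding a SLAM adaptor, and Trpm6, a magnesium channel, had 1, 1 and 2 counts in all co-cultured libraries together, and their ratios after scaling were 1699 (95% exact interval 304 to 67165), 501 (89.5 to 19846) and 413 (114 to 3418), intervals that cover counting error only. Ndst3, a heparan sulfate enzyme, completed the 8 largest with Il3 (9.29, SE 0.55), and was at 12.71 without co-cultured replicate 3.

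The largest falls included Cdh1, encoding E-cadherin, at 22, 33.1 and 71.2 CPM and then at 0.222, 0.156 and 0.249 CPM (log2 change -7.61, SE 0.64, adjusted p = 1.5e-04). Pygl, which breaks down glycogen, was at 182, 171 and 158 CPM and then at 2.5, 1.82 and 1.29 CPM (-6.51, SE 0.23, adjusted p = 1.4e-05). The restimulated libraries were uniformly low for both, and Pygl was even among the co-cultured ones, where Cdh1 ranged over 3-fold and was at -6.99 without replicate 3. The histone gene H2bc23, at 103, 96.6 and 65.3 CPM and then 0.61, 0.571 and 0 CPM (-7.82, SE 0.58), has near-identical copies and is uncertain. Phyhd1 (-7.26), Smtnl2 (-7.13), Pkhd1l1 (-6.39), the ATP-gated channel gene P2rx3 (-6.28) and Tnp2 (-6.27) made up the 8, and leaving out a restimulated library moved Phyhd1 to between -8.07 and -6.65, P2rx3 to between -7.24 and -5.68, Pkhd1l1 to -7.15 and Tnp2 to -8.10.

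Whether the change differed from that in CTRL cells was tested as the difference of the 2 changes over all 12 libraries, ATRA minus CTRL. The difference passed for 6077 of 12265 genes (49.5%), 2920 more positive in ATRA cells (23.8%) and 3157 more negative (25.7%). CTRL cells alone had 4582 of 11559 genes called (39.6%), 2211 higher and 2371 lower. Among 11338 genes tested in all 3 comparisons, 2716 were called in both treatments, 1452 in the same direction and 1264 in opposite directions. Of the latter, 694 were higher in ATRA and lower in CTRL cells. The difference was called for all 1264, which choosing them by opposite calls in the same libraries makes almost certain. Same and opposite directions rest on the CTRL state labels, which were not tested and under which every tested early factor fell in CTRL cells. Were those labels exchanged, the counts of same and opposite direction would change places. Of the genes changed in the same direction with a called difference, 382 changed more in ATRA cells and 77 less, as the libraries are labelled. Over all tested genes the median size of log2 change was also larger in ATRA cells, at 0.62 against 0.32 in CTRL cells.

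**Figure D5:**
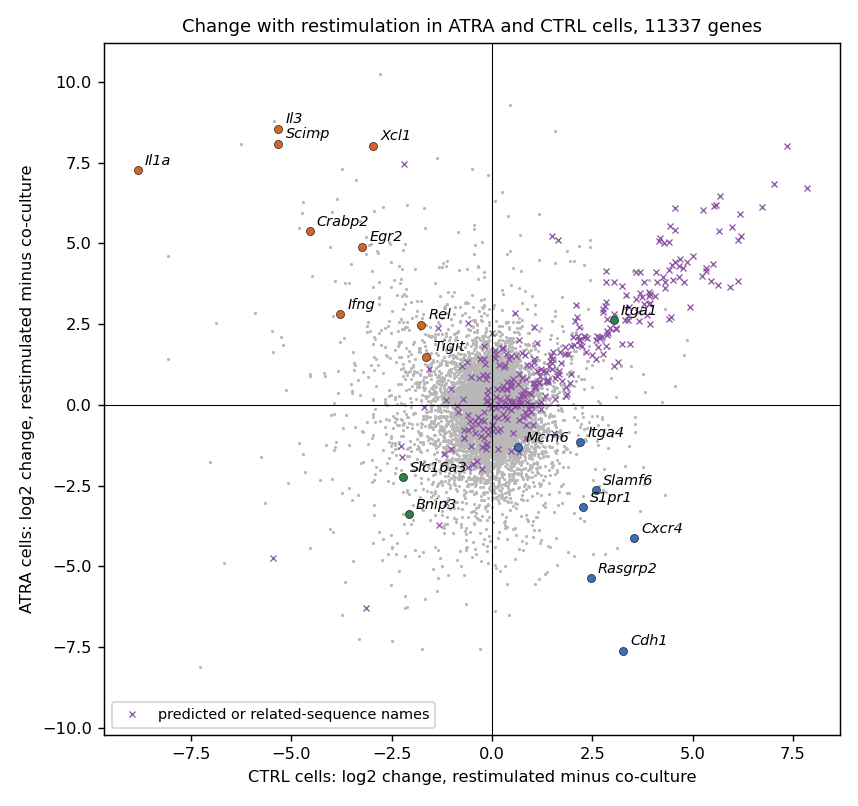
Log2 change with restimulation in ATRA cells (vertical) against CTRL cells (horizontal) for 11337 genes, with crosses for predicted or related-sequence names. Orange named genes rose in ATRA and fell in CTRL cells, blue ones did the reverse, and green ones moved alike. Of 316 predicted or related-sequence genes, 102 (32.3%) were more than 4-fold higher in both treatments, toward the upper right. Gm10359, at 0 counts in every restimulated library, is not drawn.

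Receptor-linked genes were among those that moved in opposite directions. Egr2 fell in CTRL cells from a mean of 218 to 23.2 CPM (log2 change -3.23, SE 0.18), a difference of 8.10 (SE 0.25, adjusted p = 1.4e-09). Ifng fell there from 797 to 57.4 CPM (-3.79, SE 0.12; difference 6.58, SE 0.74), and Xcl1 from 479 to 61.6 CPM (-2.96, SE 0.20; difference 10.95, SE 0.37). The co-cultured CTRL means of these 3 genes lay above the highest restimulated ATRA library, at 151 CPM for Egr2, 386 CPM for Ifng and 285 CPM for Xcl1, though the levels were scaled separately by treatment. By list, the difference was positive in 15 and negative in 3 of 24 early factors, 18 and 0 of 23 feedback genes, 13 and 2 of 19 cytokines, and 6 and 1 of 7 chemokines. Over all genes it was positive in 23.8% and negative in 25.7%. Inhibitory receptors had 10 positive and 3 negative of 20, among them Tigit (3.12, SE 0.13) and Pdcd1 (2.99, SE 0.65). The integrated stress genes had 27 positive and 1 negative of 34, with Atf4, the central factor of that response, rising in ATRA cells (0.51, SE 0.07) and falling in CTRL cells (-1.52, SE 0.09).

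Other lists moved the opposite way between treatments, or alike. Over all genes, 19.1% were called higher and 20.5% lower in CTRL cells, and the difference was positive in 23.8% and negative in 25.7%. The median size of log2 change over all genes was 0.62 in ATRA and 0.32 in CTRL cells. In CTRL cells 29 of 34 G1/S genes and 29 of 31 mitotic genes rose, and the difference was negative for 22 of the 34 and 21 of the 31, Mcm6 among them (CTRL 0.65, SE 0.09; difference -1.99, SE 0.11). Homing genes rose in 13 and fell in 3 of 22 in CTRL cells, where Itga4 rose by 2.19 (SE 0.11), Itgb7 by 2.13 (SE 0.13) and Cxcr4 by 3.55 (SE 0.10), so the differences were -3.38, -3.43 and -7.71. Hypoxia genes fell in both, 19 of 22 in CTRL cells with a median log2 change of -0.93, and the fall was larger in ATRA cells for most: the difference was negative in 15 and positive in 2 of 23. Slc16a3 fell alike in both, at -2.22 (SE 0.19) in CTRL cells with a difference of -0.05 (SE 0.22, adjusted p = 0.866), and so did Lta (-4.55, SE 0.53; difference 0.10, SE 0.82, adjusted p = 0.934), although the wide error for Lta leaves room for a sizeable difference.

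Beyond the lists, and as the CTRL libraries are labelled, the largest positive differences were in Il1a, Il3, Scimp, Ptgs2, Scg2 and Trpm6. Il1a, an alarm cytokine, had 2 counts over the co-cultured ATRA libraries and 5.49, 5.55 and 5.13 CPM after restimulation (ratio 185, 95% exact interval 50.9 to 1537), while in CTRL cells it went from 1.55, 3.78 and 2.9 CPM to 0 in all 3 libraries, at least 15.8-fold lower. Ptgs2, the inducible cyclooxygenase, went from at most 0.206 CPM to 31.7, 35.1 and 35.8 CPM in ATRA cells. On the same labels the largest negative differences were in Cdh1, Rasgrp2, Cxcr4, Krt18, P2rx7 and Grhl3. Where the changes in both treatments were large and opposite, as for Il3 (8.55 in ATRA and -5.33 in CTRL cells) and Cxcr4 (-4.12 and 3.55), a sizeable part of the difference came from the CTRL side. Rasgrp2, which activates the integrin switch RAP1, was at 64.9, 61.8 and 44.2 CPM and then at 0.777, 1.76 and 1.54 CPM in ATRA cells, and at a mean of 5.84 and then 32.1 CPM in CTRL cells (difference -7.85, SE 0.40). P2rx7, the receptor for extracellular ATP, fell in ATRA cells from 61.7 to 84.9 CPM to 2.54 to 3.22 CPM and rose in CTRL cells (difference -7.46, SE 0.66, and -6.51 without restimulated CTRL replicate 3).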

How the data were processed

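Total RNA of sorted cells was sequenced from 12 libraries, 3 in each of 4 groups, as TruSeq Stranded Total RNA libraries per the labels' protocols. The deposited values used are the authors' read counts per gene symbol, not normalized, in separate tables for the co-cultured and the restimulated libraries. The submitters' processing notes name the build mm39 and, with no order, Salmon 1.10.3, STAR 2.7.11b, DESeq2 1.42.1 and cutadapt 5.0. What each did, the strand setting and the annotation are not stated there or in the labels. A deposited TPM table was not used, because its headings match those of libraries of the other state.

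Symbols were joined across both tables, and 95.38% to 96.96% of a library's counts lay in the 13476 symbols used, over all 12 libraries. The smallest row sum in the co-culture table was 10, so genes that were silent there are missing from it. Counts were tested with edgeR 4.0.16 in R 4.3.3 (TMM, filterByExpr, robust quasi-likelihood fit), with Benjamini-Hochberg adjustment over all genes tested and a threshold of 0.05, on the 6 ATRA libraries, the 6 CTRL libraries and, for the difference, all 12. Within a state, ATRA and CTRL libraries of the same number share a batch label, which pairs them for the difference. Their deviations from the group means correlated weakly (0.1035, -0.04567 and 0.06696 in co-culture, -0.001371, -0.09899 and 0.05396 after restimulation). The standard error is the size of the log2 change divided by the square root of F. Levels are CPM on TMM-scaled library sizes. The floor was 3 counts per library. The scripts were tested on simulated data. The members, gene lists and tests were chosen with earlier results of these data known.

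Genes named are the 8 largest called changes in each direction for ATRA cells and the 6 largest for the difference (mean of at least 5 CPM in the higher group, no overlap, at least 10 counts in each table), from each of 29 lists the 2 called genes of smallest p, and 28 genes fixed by name. Other list members were named after their values were seen, and not every gene the rule gives is described. Alternatives were DESeq2 1.42.0, a test beyond 2-fold, library totals, no filter, a joint fit, a replicate block and leaving out each library. Sequences are RefSeq's for GRCm38.p6, matched by symbol. Plots were drawn with matplotlib 3.10.9.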

Additional observations from a re-analysis of the deposited data

Results flagged for a closer look

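The change with restimulation differed between ATRA and CTRL cells, by the interaction test, for 6077 genes. Each value below is the log2 change in ATRA cells minus that in CTRL cells, and all passed at an adjusted p below 0.05. Gzmb and Tcf7 did not pass with the shared batch label as a block (0.0788 and 0.0604). Their calls were also lost in most fits that left out 1 library (0.0568 to 0.101 for Gzmb and 0.052 to 0.15 for Tcf7). The sign of the CTRL change rests on the CTRL state labels, which were not tested and under which every tested early factor fell in CTRL cells. The difference was positive for Il1a (16.08), Il3 (13.86), Scimp (13.38), Ptgs2 (13.25), Scg2 (13.02), Trpm6 (12.71) and Xcl1 (10.95), several of which have groups at or near 0 counts, where the fitted size depends on the prior count and is no bound. Without co-cultured ATRA replicate 1 Trpm6 was at 15.26, Il3 at 14.59 and Ptgs2 at 13.96, without co-cultured ATRA replicate 2 Il1a was at 18.63 and Scimp at 15.16, and without restimulated CTRL replicate 1 Scg2 was at 14.00. It was also positive for Egr2 (8.10), Ccl4 (7.98), Ccl3 (7.87), Ifng (6.58), Nr4a1 (3.39), Tigit (3.12), Prf1 (3.00), Pdcd1 (2.99), Eomes (2.12), Havcr2 (1.75), Tnf (1.70), Tbx21 (1.30), Lag3 (1.30) and Gzmb (0.61).

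The difference was negative for Cdh1 (-10.92), Rasgrp2 (-7.85), Cxcr4 (-7.71), Krt18 (-7.57), P2rx7 (-7.46), Grhl3 (-7.16), Slamf6 (-5.25), Tcf7 (-4.25), Itgb7 (-3.43), Itga4 (-3.38), Myc (-2.04), Mki67 (-1.56), Il7r (-1.22) and Rara (-0.97). Without co-cultured ATRA replicate 3 Krt18 was at -6.55, Grhl3 at -5.69 and Cdh1 at -10.28, and without restimulated CTRL replicate 3 Cdh1 was at -9.30 and P2rx7 at -6.51. In CTRL cells Tcf7 lay at a mean of 4.22 and then 2.98 CPM, and without CTRL restimulated replicate 3 its difference was -2.05 (adjusted p = 0.15), against -5.05 without restimulated ATRA replicate 1.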

How the results depend on the processing

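In ATRA cells the number of genes called was 6832, and it was 7217 with DESeq2, 6807 with library totals, 6990 with no filter and 7502 when all 12 libraries were fitted together. Testing for a change beyond 2-fold lowered it to 1704 in ATRA cells, to 661 in CTRL cells and to 1837 for the difference, which that test does by its construction. Leaving out each library in turn gave 5437 to 9003 in ATRA cells, with 9003 without co-cultured replicate 3, 3243 to 4973 in CTRL cells and 5364 to 7043 for the difference. Leaving out that replicate together with co-cultured CTRL replicate 1, an alternative chosen after seeing the data, gave 7462 for the difference. Library totals in place of TMM moved the median log2 change in ATRA cells from -0.01 to 0.11, and the share of called genes that were higher from 49.3% to 56.9% in ATRA cells and from 48.3% to 58.3% in CTRL cells.

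Co-cultured and restimulated ATRA libraries of the same number have different batch labels and did not deviate together (correlations -0.01421, -0.01074 and 0.009206), so their numbers were not taken to pair them, and with the replicate block 6109 genes were called in ATRA cells. Over the genes and alternatives run for ATRA cells, 1492 values kept direction and side of the threshold, 33 lost the call and 5 gained it, and no called value among them changed sign, while Tnfaip3, not among them, changed sign without co-cultured replicate 3. For the difference these counts were 823, 31 and 4. With the batch label that ATRA and CTRL libraries share as a replicate block, an alternative chosen after seeing the data, the difference was called for 5406 genes, and of the named genes Gzmb (0.62, adjusted p = 0.0788) and Tcf7 (-3.36, adjusted p = 0.0604) lost their call. Both were lost in other settings too, and that of Grhl3 without CTRL restimulated replicate 2 or 3 (0.0687 and 0.101). The cause was not tested. Genes near 0 in co-culture are limited by depth, and Il3 was at 9.30, Fat2 at 12.00 and Ccl9 at 7.28 without 1 co-cultured library.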

Other observations

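Several genes of interest were in the restimulated table and not among the symbols shared by both tables, so they have a level but no change. Il2, the T cell growth factor, was at 0.652 ± 0.346 CPM (SD, n = 3) in restimulated ATRA cells, with 0.669, 0.99 and 0.298 CPM by library, and at 0 in restimulated CTRL cells. The retinoic acid-degrading enzyme gene Cyp26a1 was at 0.801 ± 0.135 CPM (SD, n = 3), the retinoic acid-making enzyme gene Aldh1a2 at 0.674 ± 0.275 CPM (SD, n = 3), and Rarb, Rxrg and Crabp1 were at 0. Zfp683, encoding the residency factor HOBIT, was at 2.66 ± 0.411 CPM (SD, n = 3) in ATRA and 6.9 ± 1.07 CPM (SD, n = 3) in CTRL cells. Il9 was at 0.56 ± 0.0474 CPM (SD, n = 3) in ATRA cells.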
